A study of Mus musculus with 23 samples.

Results

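The Zfp genes are a large group of zinc finger genes of the mouse that share a symbol root, and they were followed here through the differentiation of A404 cells towards smooth muscle. A gene was a member where at least 1 probe carried a single symbol beginning with Zfp and a digit. This rule found 140 genes on 170 probes, out of 8683 genes with a symbol. The probes of a gene were averaged, and 116 members had 1 probe while 24 had 2 or 3. No filter on low values was used, so all 140 members were tested in every comparison.

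A404 cells are a single clone derived from P19, an embryonal carcinoma line of the mouse. As background, the Acta2 (smooth muscle alpha-actin) promoter drives their puromycin resistance, so that selection spares cells that have switched that promoter on. Control cells (n = 6 arrays) were undifferentiated and were harvested near confluence at time 0. The RA48 group (n = 5) and the RA96 group (n = 6) had 48 h and 96 h of 1 µmol/L all-trans retinoic acid, begun at about 30% confluence. The Puromycin group (n = 6) was selected with puromycin for 48 h after the 96 h of retinoic acid. Whether retinoic acid was present during selection is not stated. In the comparisons with Control, cell density and treatment cannot be told apart. Every array set Cy5-labelled RNA from cells against Cy3-labelled RNA pooled from whole mouse embryos of day 17.5, without a dye swap. Values are log2 ratios of cells over embryo, converted from log ratios read as base 10, and a change is a difference between the mean log2 ratios of 2 groups.

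Most Zfp genes encode proteins with runs of C2H2 zinc fingers, each finger a small fold around a zinc ion that can contact DNA. In many of them a KRAB domain beside the fingers recruits the scaffold Trim28, also called KAP1, and through it the histone methyltransferase Setdb1, heterochromatin proteins and histone deacetylases. These repressors are known above all from embryonic stem and embryonal carcinoma cells, where they silence transposable elements and, with Zfp57, keep imprinted genes methylated. The symbol is not a structural class: Zfp36 has CCCH fingers that bind RNA, and several members act as activators or in other processes. No protein sequence was used here, so members were not divided by domain.

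Within every group the arrays divided into 2 sets, for which the labels give no name. The first held 11 arrays (Control, RA48 and Puromycin replicates 1 to 3, and RA96 replicates 1 and 3), and the second the remaining 12. Of the variance left after the group means were taken out, 48.9% lay along the component that separates the sets and 10.6% along the next. RA48 had 3 arrays in the first set and 2 in the second, and RA96 had 2 and 4, so the RA96 versus RA48 fit carries part of the shift between the sets. Changes within each set are therefore given beside results of named members whose call was lost in one of them. Of the marker genes, Sox2, a pluripotency and neural factor, averaged -0.60 in Puromycin arrays against 5.09 in Control arrays, and all 3 measured markers of undifferentiated cells fell. Sox2 was at 8.18 on Control replicate 5, where the other Control arrays lay at 4.12 to 5.22. Acta2 averaged 2.40 in Puromycin arrays against -4.90 in Control arrays, and 4 of 5 smooth muscle markers rose. The other, Myh11, spanned -2.22 to -0.03 in Control and -1.98 to 0.13 in Puromycin arrays, with its low values in the first set. In Puromycin versus Control, 3 of 5 endoderm markers rose, with 1 of 3 neural and 1 of 5 cardiac or skeletal muscle markers. Of the genes with a symbol outside the Zfp group, 24.8% rose and 28.6% fell there. The neural and muscle counts thus lie near the general share. The part of these shifts in cell makeup in the Zfp results was not tested, and ratios have no zero, so no summed marker level was formed. In RNA from whole cultures, fewer cells of a type and less RNA per cell cannot be told apart.

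As a group the Zfp genes stood above the other genes relative to the embryo RNA at all 4 points, and on every array but RA96 replicate 5. The median Zfp log2 ratio on an array averaged 0.227 ± 0.077 (SD) over the Control arrays and 0.209 ± 0.085 over the RA48 arrays. The RA96 arrays gave 0.133 ± 0.100 and the Puromycin arrays 0.183 ± 0.102 (n = 6 arrays a group, 5 for RA48). The median of the 8543 other genes averaged -0.003, 0.083, 0.056 and 0.045 in the same order. The distance between the medians was thus widest in undifferentiated cells, at 0.230 ± 0.067, and was 0.126 ± 0.069 in RA48, 0.078 ± 0.102 in RA96 and 0.138 ± 0.099 in Puromycin. Within the second set it was 0.178, 0.130, 0.016 and 0.050, and within the first set 0.281, 0.123, 0.200 and 0.227. In both sets every later group lay below Control, while the order of the later groups differed between the sets. Mean log2 ratios above 0 were found for 86 members in Control, 85 in RA48, 79 in RA96 and 89 in Puromycin. These are 61.4%, 60.7%, 56.4% and 63.6% of the members, beside 49.7%, 54.0%, 52.5% and 51.8% of the other genes.

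**Figure D1:**
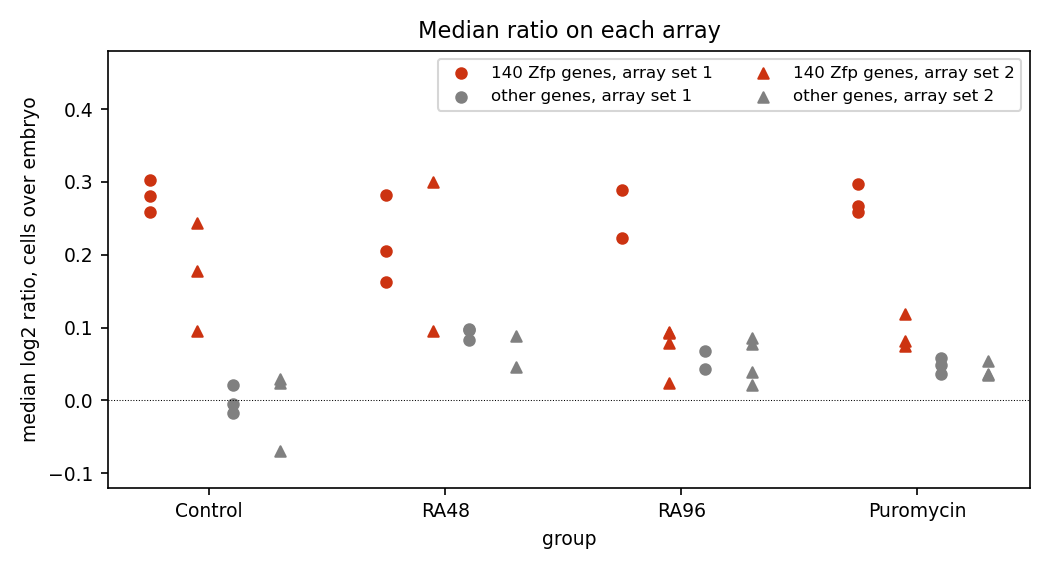
Median log2 ratio of cells over embryo (vertical axis) on each of 23 arrays in the 4 groups (horizontal axis), in red for the 140 Zfp genes and in grey for the other genes, with circles for the first array set and triangles for the second. The mean of the Zfp medians was 0.227 in Control and 0.133 in RA96, and in Control, RA96 and Puromycin every first-set median of the Zfp genes lay above every second-set one.

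Over the 4 groups 72 of 140 members (51.4%) differed by limma's F test at an adjusted p under 0.05, beside a background of 52.7% of all 17863 rows and 61% of the other genes. With the array set as a block the count was 102, beside 71.2% of rows. Of the 72, 37 had their highest mean in Control, 11 in RA48, 10 in RA96 and 14 in Puromycin. The lowest mean lay in Puromycin for 22, in Control for 18, in RA96 for 17 and in RA48 for 15. As shares, 51.4% of these members were highest and 25% lowest in Control, against 41.7% and 38.7% of the 5207 other genes that passed. The difference between these shares was not tested.

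**Figure D2:**
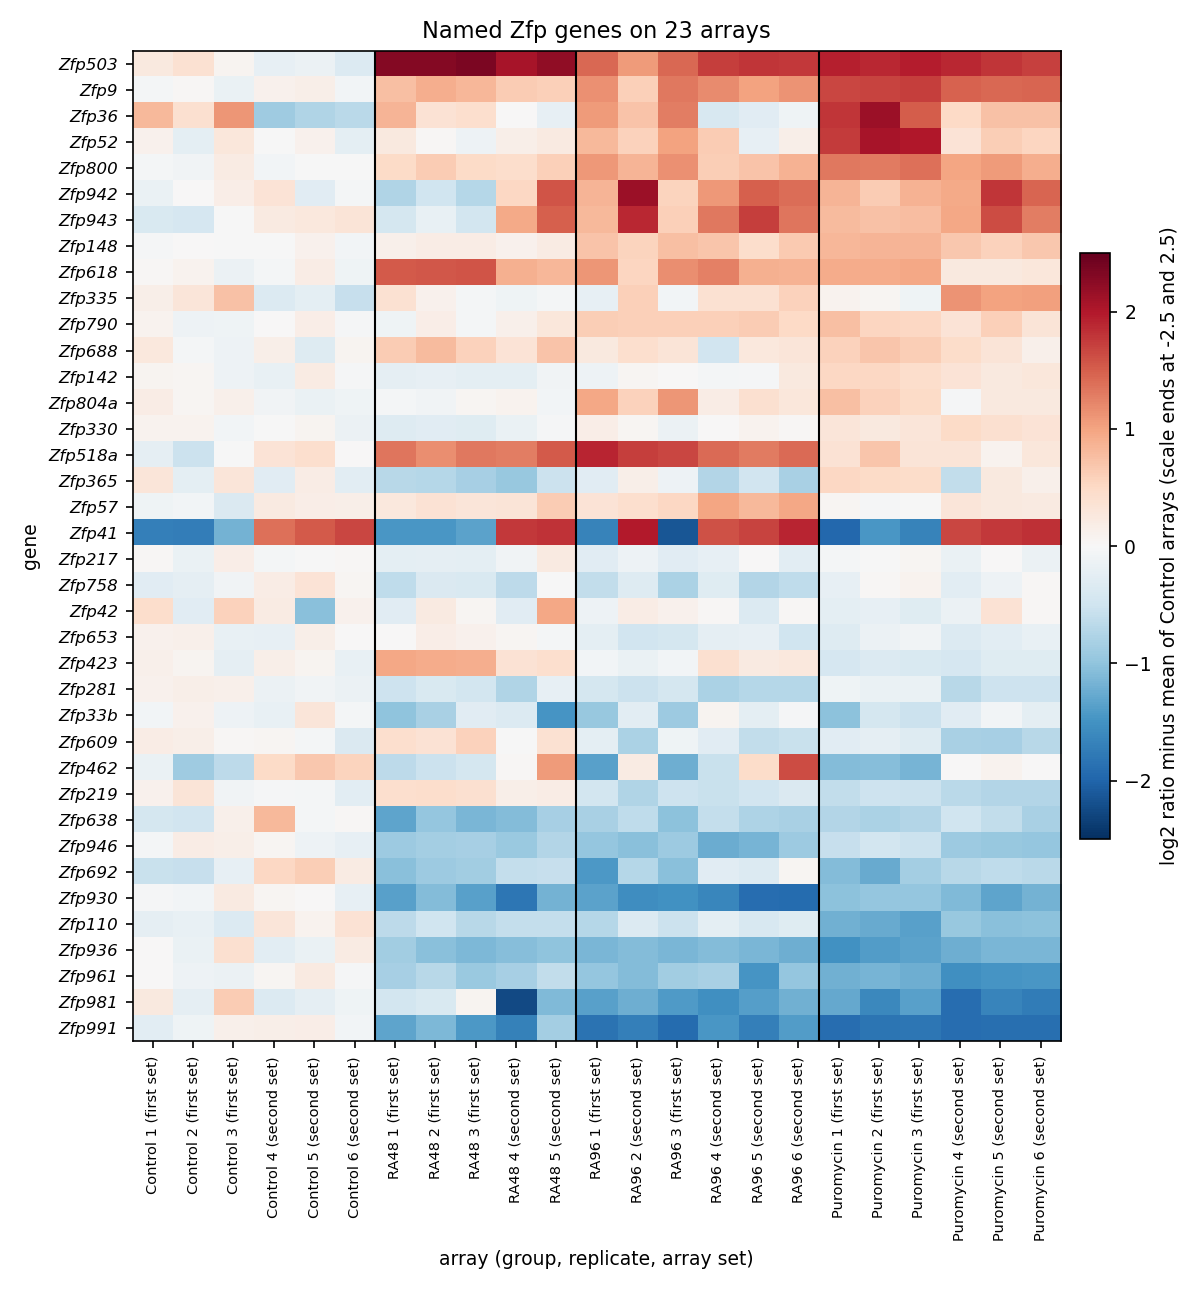
Log2 ratio minus the mean of the Control arrays (colour, ends of the scale at -2.5 and 2.5) for 38 named Zfp genes (rows, ordered by the Puromycin minus Control change) on 23 arrays (columns, by group, with the array set in brackets). Zfp503 and Zfp9 stand at the top in red and Zfp981 and Zfp991 at the bottom in blue, and Zfp41 changes colour with the array set and not with the group.

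RA48 versus Control asked which members moved in the first 48 h of retinoic acid, and the answer was mostly downward. Of the 140 members 14 rose and 33 fell, 47 in all (33.6%), beside a background of 26.0% of all rows, 11.9% higher and 14.1% lower. Among the other genes with a symbol 18.1% rose and 16.2% fell. The median Zfp change was -0.13 (-0.14 within the first and -0.13 within the second set), against -0.02 for the other genes. With array weights the Zfp median was -0.03. The groups did not overlap for 29 members (20.7%), beside 18.1% of rows and 26.0% of the other genes. All 47 had 1 direction in both array sets, as did 4624 of the 4642 rows that passed. The fit pools both sets, so this is no separate check. At least 2-fold, 3 members rose and 4 fell (5.0%), beside 5.14% of rows and 7.22% of the other genes. A fit with the array set as a block gave 18 rises and 46 falls, 64 in all, where 39.3% of rows passed.

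The largest change of any member was the rise of Zfp503, also known as Nolz1, a repressor of the NET family that acts in the developing striatum. Its log2 ratios were 1.15, 1.16, 1.20, 0.92 and 1.08 in RA48 arrays, against -1.48, -1.18 and -0.76 (lowest, median, highest) in Control arrays. Every RA48 array thus lay above 0 and every Control array below it. The change was 2.25 ± 0.13 (SE), 4.74-fold (limma, adjusted p = 1.16e-11), with 2.09 and 2.37 within the first and second set. It was the only member in the range of the highest 2.5% of the other genes' changes. Zfp503 then had -0.07, 0.44 and 0.64 in RA96 arrays and 0.57, 0.74 and 0.81 in Puromycin arrays. It fell by 0.71 ± 0.13 in RA96 versus RA48 (-0.88 within the first set, and -0.55 with an adjusted p = 0.0711 within the second) and stayed 3.63-fold above Control in Puromycin (1.86 ± 0.12, adjusted p = 4.12e-11), so its highest point was at 48 h.

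Zfp518a had log2 ratios of 1.64, 1.46, 1.63, 1.59 and 1.84 in RA48 arrays, against -0.22, 0.31 and 0.73 (lowest, median, highest) in Control arrays. The groups did not overlap, and the rise was 1.33 ± 0.15, 2.51-fold (limma, adjusted p = 3.96e-07). In RA96 it had 1.60, 1.85 and 2.22, and in Puromycin 0.39, 0.63 and 0.99. After puromycin the gene thus fell back, by 1.23 ± 0.14 relative to RA96 (adjusted p = 1.49e-05), without overlap, and its Puromycin arrays overlapped those of Control (0.34 ± 0.14, adjusted p = 0.0525). This was the only member that fell at least 2-fold after selection. Its promoter is shown because it rose in retinoic acid and holds the retinoid receptor half-site AGGTCA (in capitals) in the window from 250 bases before to 50 after the RefSeq start, at chr19:40894455-40894754 of GRCm38.p6, + strand.
Zfp518a: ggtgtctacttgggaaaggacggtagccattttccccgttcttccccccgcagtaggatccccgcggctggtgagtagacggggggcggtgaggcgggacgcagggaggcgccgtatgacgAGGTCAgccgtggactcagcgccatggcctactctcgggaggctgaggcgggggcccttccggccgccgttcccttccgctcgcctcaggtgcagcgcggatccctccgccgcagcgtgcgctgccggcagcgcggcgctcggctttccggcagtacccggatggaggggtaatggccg
AGGTCA is a short motif that occurs on either strand in 16.3% of the 32851 promoters in the RefSeq table. It occurs in 14.7% of the 136 promoters of the 115 members found there. Of members in the table, 13 that rose at 48 h had it in 6 of 19 promoters, and 28 that fell in 2 of 30. A member can have several promoters, and more than 1 of those 6 belongs to Zfp57. A match describes letters in a window and is not a bound site, and nothing follows from the windows without it.

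The other large rises at 48 h were those of Zfp618, Zfp9, Zfp423 and Zfp688. Zfp618 rose by 1.28 ± 0.18 (2.43-fold, adjusted p = 6.77e-06), with means of 0.70 ± 0.38 in RA48 and -0.58 ± 0.13 in Control arrays. Its 2 probes rose by 1.13 and 1.43. Zfp423, a many-fingered cofactor of Smad and Ebf factors in neural and mesenchymal development, had 0.86, 0.81, 0.80, 0.24 and 0.30 in RA48 arrays, against -0.34, -0.04 and 0.02 in Control arrays. The groups did not overlap, but the rise of 0.71 ± 0.12 (adjusted p = 0.000117) was 0.95 within the first set and 0.37 (adjusted p = 0.083) within the second. It fell again over the second 48 h (-0.62 ± 0.12) and with selection (-0.46 ± 0.12). Within the second set the first of these falls was -0.20 (adjusted p = 0.393), and within the first set the other was -0.31 (adjusted p = 0.0911). All of its Puromycin arrays, at -0.54 to -0.42, lay below the Control arrays. Zfp688 rose by 0.61 ± 0.14 (adjusted p = 0.00243). It differed by 0.55 within the second set and did not pass there (adjusted p = 0.111).

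Zfp9 differed from these in rising at every step. Its log2 ratios were -1.55, -1.38 and -1.22 (lowest, median, highest) in Control arrays, -0.62, -0.45, -0.54, -0.74 and -0.79 in RA48 arrays, -0.78, -0.23 and -0.06 in RA96 arrays, and 0.07, 0.20 and 0.36 in Puromycin arrays. Only the RA48 and RA96 arrays overlapped. The first step was 0.74 ± 0.11, the second 0.32 ± 0.11 (adjusted p = 0.0418) and the last, with selection, 0.51 ± 0.10. Within the second set the second step was 0.37 and did not pass (adjusted p = 0.123), and its call was lost without any 1 of the RA48 and RA96 arrays other than RA48 replicate 2 and RA96 replicate 2. From Control to Puromycin the gene rose 2.98-fold (1.57 ± 0.10, limma, adjusted p = 2.73e-11).

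**Figure D3:**
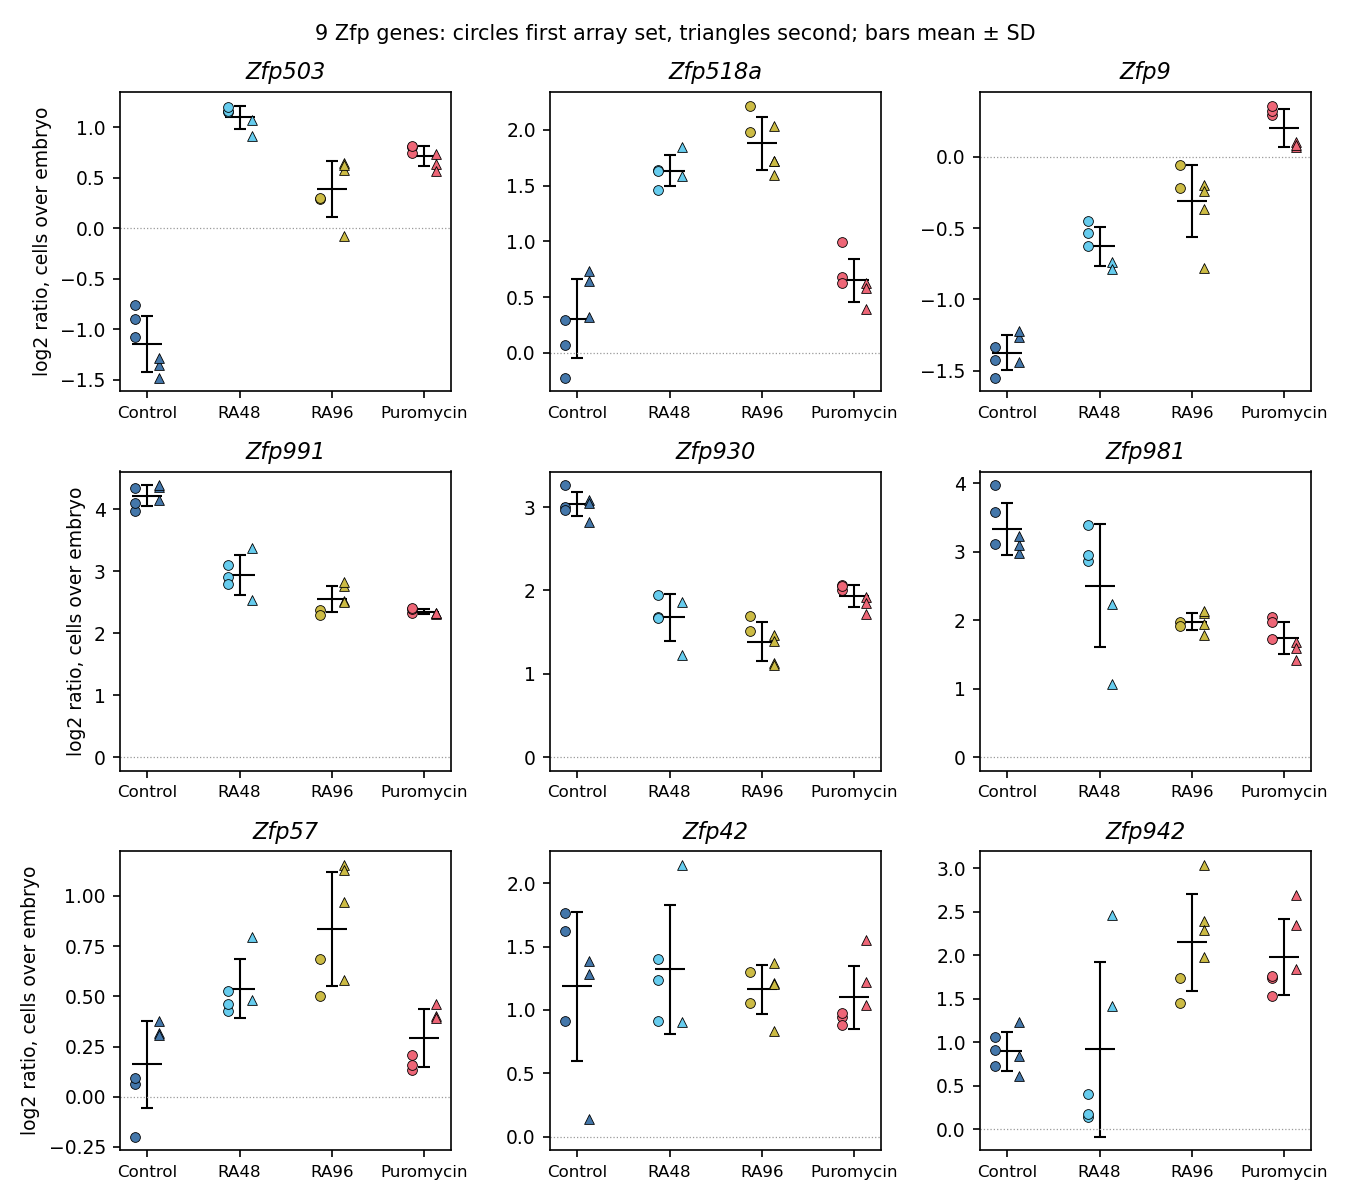
Log2 ratio of cells over embryo (vertical axes) in the 4 groups (horizontal axes) for 9 Zfp genes, with a circle for each array of the first set, a triangle for each of the second, and black bars for the mean ± SD. Zfp503 and Zfp518a lie above Control in all RA48 arrays, Zfp991 and Zfp930 lie below it in all later arrays, Zfp42 overlaps between all groups, and the RA48 arrays of Zfp942 divide by set.

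Several of the members that fell at 48 h were those that stood highest above the embryo RNA in undifferentiated cells. The Control arrays enter both this level and the change, so the level and the change are not independent. Zfp991, Zfp981 and Zfp930 had the highest Control means of all members, at 4.22, 3.33 and 3.03, and Zfp961 had 2.70. They are little-studied genes, and Zfp991 and Zfp981 lie on chromosome 4 and Zfp930 and Zfp961 on chromosome 8. Zfp991 had 2.91, 3.10, 2.78, 2.53 and 3.37 in RA48 arrays, against 3.96, 4.25 and 4.38 in Control arrays. Its fall of 1.28 ± 0.12 (2.42-fold, adjusted p = 4.9e-08) was given by both of its probes (-1.36 and -1.19). Zfp930 had 1.68, 1.95, 1.67, 1.23 and 1.86 in RA48 arrays, against 2.83, 3.03 and 3.26 in Control arrays, and fell by 1.36 ± 0.12 (2.56-fold, adjusted p = 1.81e-08). Both thus dropped without overlap, and both kept ratios above 1 in all groups. Zfp961 fell by 0.78 ± 0.11 without overlap. Zfp981 had 2.86, 2.95, 3.39, 1.07 and 2.23 in RA48 arrays, against 2.99, 3.17 and 3.97 in Control arrays, an overlap. Its change of -0.83 ± 0.27 (adjusted p = 0.0277) was -0.48 (adjusted p = 0.093) within the first set and -1.45 within the second, and the call was lost without Control replicate 1 or 3 or RA48 replicate 4 or 5.

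Zfp936 on chromosome 7 had 0.45, 0.26, 0.19, 0.23 and 0.30 in RA48 arrays, against 1.05, 1.23 and 1.70 in Control arrays, and fell by 1.02 ± 0.10 (2.03-fold, adjusted p = 7.1e-08). Zfp638, a nuclear protein that promotes fat cell differentiation, fell by 1.07 ± 0.16 (adjusted p = 2.1e-05), with changes of -1.22, -1.08 and -0.92 at its 3 probes. Zfp930, Zfp991, Zfp638 and Zfp936 were the only members in the range of the lowest 2.5% of the other genes. With Zfp503 they made 5 members in these outer ranges (3.57%), where 5.01% of the other genes lay. Zfp946 (-0.85 ± 0.10, adjusted p = 1.48e-06) and Zfp33b (-0.78 ± 0.22, adjusted p = 0.00907) also fell without overlap. Zfp365, a gene of genome stability and neurite growth, fell by 0.74 ± 0.19 (adjusted p = 0.00566) and had means of 1.00 ± 0.15 in RA48 and 1.74 ± 0.29 in Control arrays. Within the second set its change was -0.62 and did not pass (adjusted p = 0.158). The remaining members that fell changed by -0.22 to -0.80. Genes of one family can be so alike that their RNAs bind each other's probes, and as probe sequences were not used this was not tested.

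**Figure D4:**
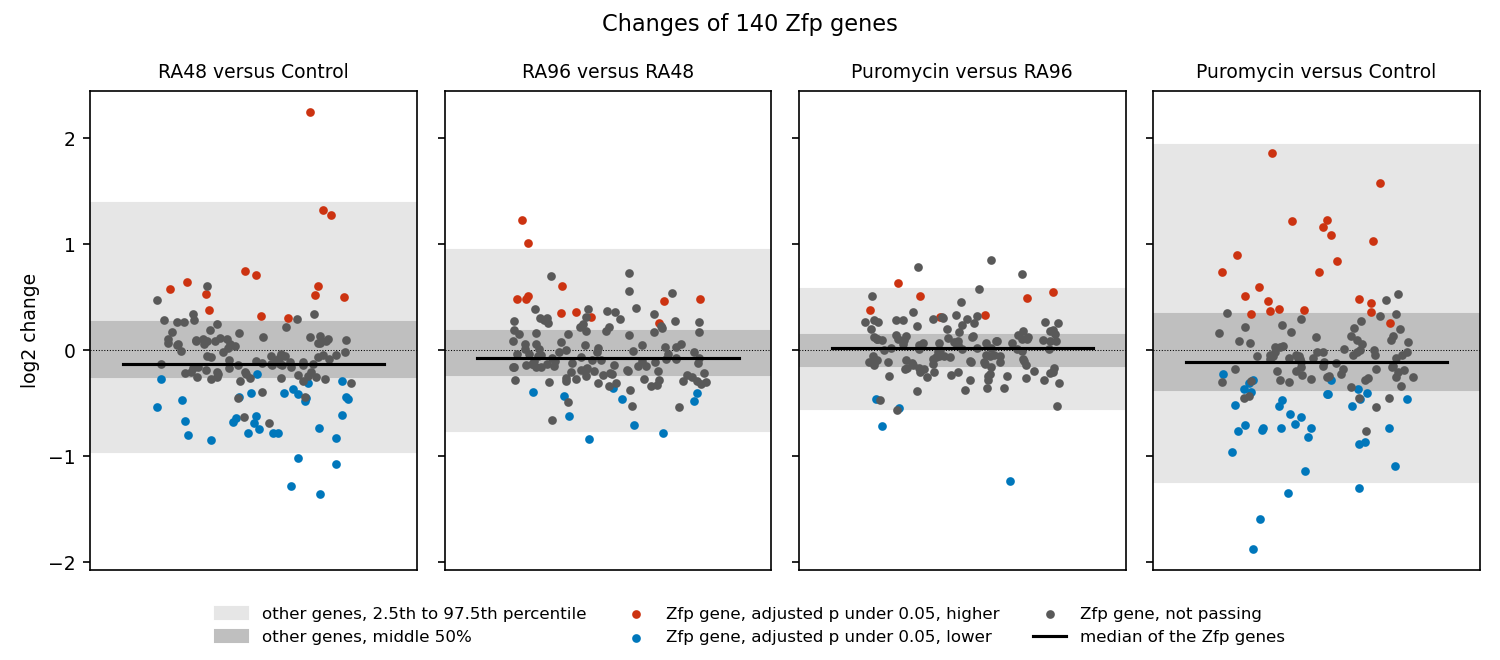
Log2 changes (vertical axis) of all 140 Zfp genes in the 4 comparisons (panels), each point a gene, in red where it was higher and blue where it was lower at an adjusted p under 0.05, with the median as a black line. Grey bands give the middle 50% of the other genes and their range without the lowest and the highest 2.5%, and the Zfp median lies below 0 in RA48 versus Control (-0.13) and in Puromycin versus Control (-0.11).

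Among 10 measured members linked to pluripotent cells, of 12 listed, 2 rose (Zfp57 and Zfp219) and 3 fell at 48 h, with a median of -0.14. Of the other genes with a symbol 18.1% rose and 16.2% fell there. Within the second set the rise of Zfp219 (adjusted p = 0.0753) and the fall of Zfp281 (adjusted p = 0.0795) did not pass. Of the other genes 24.8% rose and 28.6% fell in Puromycin versus Control. Among the 10 members 0 rose and 4 fell there, with a median of -0.26. Those that fell there were Zfp322a, a factor of the pluripotency network (-0.76), Zfp207 or BuGZ, which binds the checkpoint protein Bub3 (-0.69), Zfp219, a partner of Sox9 (-0.63), and Zfp281, a zinc finger partner of Nanog (-0.36). Zfp281 averaged 1.28 ± 0.25 in Puromycin arrays against 1.64 ± 0.14 in Control arrays (adjusted p = 0.0108). Its 3 probes did not move together, with changes of -0.66, 0.20 and -0.63, so the fall rests on 2 of them. Zfp217 (0.53 ± 0.08 in Puromycin and 0.58 ± 0.11 in Control arrays), known in human cells as an oncogene that works with corepressors, had an F test adjusted p = 0.229. Zfp462, which is tied to heterochromatin, had an adjusted p = 0.714, and its arrays spanned -0.79 to 2.21 within RA96 alone.

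Zfp42, or Rex1, is a classical marker of undifferentiated stem cells, yet no change was detectable here. Its log2 ratios were 0.14, 1.34 and 1.76 (lowest, median, highest) in Control arrays, 0.91, 1.40, 1.24, 0.91 and 2.15 in RA48 arrays, 0.84, 1.21 and 1.37 in RA96 arrays, and 0.88, 1.01 and 1.55 in Puromycin arrays. All groups overlapped (limma F test, adjusted p = 0.864). The change in Puromycin versus Control was -0.09 ± 0.23 (adjusted p = 0.79), with -0.50 within the first set and 0.33 within the second, so not even a direction was shared. On the same arrays Utf1, another gene of undifferentiated cells, fell by 3.82 and Sox2 fell by 5.70. The Sox2 mean in Control was raised by replicate 5, at 8.18 where the others lay at 4.12 to 5.22. The gene has 1 probe, and no intensities were used, so a signal near background cannot be told from a steady level. Its promoter, at chr8:43306960-43307259 of GRCm38.p6, - strand, is shown because it holds the octamer known as the binding motif of Oct4, written ATGCAAAT on the opposite strand (in capitals as ATTTGCAT).
Zfp42: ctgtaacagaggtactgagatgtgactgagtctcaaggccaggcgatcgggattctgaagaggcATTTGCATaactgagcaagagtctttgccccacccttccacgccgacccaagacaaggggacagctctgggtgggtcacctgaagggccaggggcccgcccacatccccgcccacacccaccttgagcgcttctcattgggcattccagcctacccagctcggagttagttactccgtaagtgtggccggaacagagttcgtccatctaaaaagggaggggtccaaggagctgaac
The octamer occurred, on either strand, in 5 of the 136 member promoters (3.68%) and in 1.74% of all promoters in the table.

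Zfp57, the KRAB protein that protects imprinted methylation and is itself a marker of stem cells, was higher at 48 h and fell with selection. It had -0.20, 0.20 and 0.38 in Control arrays, 0.43, 0.53, 0.46, 0.48 and 0.80 in RA48 arrays, 0.50, 0.83 and 1.16 in RA96 arrays, and 0.14, 0.30 and 0.46 in Puromycin arrays. It was higher in RA48 than in Control without overlap (0.38 ± 0.13, adjusted p = 0.0316). Within the second set it was 0.30 higher and did not pass (adjusted p = 0.16). The call was lost when Control replicate 1, 2 or 3, or RA48 replicate 2 or 5, was left out. After puromycin it fell by 0.54 ± 0.12 relative to RA96 (adjusted p = 0.00866), again without overlap, and its Puromycin arrays overlapped those of Control. TGCCGC, the hexamer that Zfp57 binds when methylated, stood on either strand in 22.8% of the member promoters, beside 11.6% of all promoters in the table. It stood in 6 of 19 promoters of 13 members that rose at 48 h and in 9 of 30 promoters of 28 that fell. Promoters were not matched for base composition, methylation was not measured, and binding by Zfp57 was not tested.

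Of 4 measured members linked to neural or mesenchymal development, of 12 listed, Zfp503 and Zfp423 rose and Zfp365 fell at 48 h. The fourth, Zfp804a, whose human counterpart is a schizophrenia-associated gene, rose later: it had 0.28 ± 0.38 in RA96 and -0.32 ± 0.08 in RA48 arrays, without overlap (0.60 ± 0.15, adjusted p = 0.00807). This rise was 1.07 within the first set and 0.35 (adjusted p = 0.0776) within the second. Zfp143, Zfp521, Zfp703, Zfp36l1 and Zfp36l2 were not assessed here. Zfp36, or tristetraprolin, which binds AU-rich elements and speeds mRNA decay, was the only CCCH member measured. It averaged -0.92 ± 0.67 in Puromycin arrays against -2.15 ± 0.87 in Control arrays, and the groups overlapped. The change of 1.23 ± 0.38 (2.35-fold, adjusted p = 0.0111) was 1.04 within the first set and 1.42 within the second, both past the threshold, while with quantile normalization it was 1.04 and did not pass (adjusted p = 0.0826). It was the largest rise of any member in Puromycin versus RA96 (0.86 ± 0.38), but it did not pass there (adjusted p = 0.24; 0.0193 with the array set as a block).

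Over the second 48 h of retinoic acid, the question of RA96 versus RA48, the members that passed were split between rises and falls. Of 140 members 12 rose and 10 fell, 22 in all (15.7%), beside a background of 19.8% of all rows (10.4% higher, 9.42% lower). The median change was -0.07 against -0.03 for the other genes. It was -0.05 against -0.05 within the first set and 0.0096 against -0.024 within the second, so the order of the medians was not shared by the sets. The groups did not overlap for 8 members, or 5.71%, where 10.3% of rows and 13.8% of the other genes had none. The count of 22 is the least steady of those given. It was 47 within the first set, 9 within the second and 35 with the set as a block, beside 32.1% of rows. Without RA48 replicate 1, 2 or 3 it was 11, 12 and 12. All 22 had 1 direction in both sets, as did 3491 of the 3540 rows that passed, and this too is no separate check.

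Zfp219 fell most, with -0.56, -0.31 and -0.17 in RA96 arrays, against 0.60, 0.62, 0.59, 0.34 and 0.37 in RA48 arrays. The groups lay on either side of 0, and the change was -0.84 ± 0.10 (1.79-fold, adjusted p = 2.63e-06), with -0.91 and -0.70 within the sets. Zfp609, a partner of the cohesin loader Nipbl and the Integrator complex in neural progenitors, fell by 0.78 ± 0.15 (adjusted p = 0.000739; -0.63 and -0.75 within the sets). Both lay in the range of the lowest 2.5% of the other genes, and both remained low in Puromycin, 0.63 and 0.53 below Control. Zfp653, a nuclear receptor corepressor, fell by 0.40 ± 0.09 (adjusted p = 0.00241), and within the second set it differed by -0.35 (adjusted p = 0.0856). Zfp148 or ZBP-89, which binds GC-rich promoters, rose by 0.47 ± 0.07 (adjusted p = 0.000111), as did Zfp790 by 0.51 ± 0.09 (adjusted p = 0.000342), each without overlap. The 3 probes of Zfp148 rose by 0.61, 0.26 and 0.54.

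The 2 largest rises in RA96 versus RA48 were those of the neighbours Zfp942 and Zfp943 on chromosome 17, and the arrays of RA48 decide their size. Zfp942 had 1.45, 2.14 and 3.04 in RA96 arrays, against 0.14, 0.40, 0.18, 1.42 and 2.46 in RA48 arrays. Zfp943 had 0.86, 1.58 and 2.13 in RA96 arrays, against -0.19, 0.07, -0.21, 1.21 and 1.76 in RA48 arrays. RA48 replicates 4 and 5, which are those of the second set, already lay within the RA96 range, except that replicate 4 was just below it for Zfp942. The changes were 1.23 ± 0.34 for Zfp942 (adjusted p = 0.0153) and 1.01 ± 0.31 for Zfp943 (adjusted p = 0.0266). Within the first set they were 1.35 and 1.07, and within the second 0.49 (adjusted p = 0.409) and 0.34 (adjusted p = 0.342). Leaving out RA48 replicate 1, 2 or 3 ended both calls, and leaving out RA96 replicate 2 or 5 ended that of Zfp943. Against Control both were higher in Puromycin without overlap, Zfp942 by 1.09 ± 0.33 (2.13-fold, adjusted p = 0.00925) and Zfp943 by 1.03 ± 0.30 (2.04-fold, adjusted p = 0.00709).

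The promoters of this pair are shown because the genes moved together and their start regions are shared. They are transcribed away from each other from starts 95 bases apart, and their windows overlap by 194 bases (in capitals, each on its own strand). The windows are chr17:21962415-21962714, - strand, for Zfp942 and chr17:21962309-21962608, + strand, for Zfp943, on GRCm38.p6.
Zfp942: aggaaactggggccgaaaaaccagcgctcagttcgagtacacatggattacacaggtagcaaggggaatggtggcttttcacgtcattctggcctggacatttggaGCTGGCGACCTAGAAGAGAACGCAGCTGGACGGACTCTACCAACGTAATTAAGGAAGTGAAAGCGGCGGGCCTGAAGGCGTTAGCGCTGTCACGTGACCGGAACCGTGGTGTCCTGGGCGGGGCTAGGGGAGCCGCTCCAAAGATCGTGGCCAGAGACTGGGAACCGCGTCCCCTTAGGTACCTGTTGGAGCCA
Zfp943: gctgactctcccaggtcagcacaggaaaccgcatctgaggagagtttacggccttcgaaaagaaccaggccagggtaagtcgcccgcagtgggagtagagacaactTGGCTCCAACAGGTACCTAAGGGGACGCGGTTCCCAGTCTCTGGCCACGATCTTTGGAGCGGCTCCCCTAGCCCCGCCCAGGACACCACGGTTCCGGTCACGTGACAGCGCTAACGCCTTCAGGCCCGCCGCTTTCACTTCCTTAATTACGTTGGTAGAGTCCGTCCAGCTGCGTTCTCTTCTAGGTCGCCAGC
Whether RNA of one of these genes also binds the probe of the other was not tested.

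Zfp genes often lie in clusters, and 60 members lay in 17 neighbourhoods in which the next member's start was at most 500 kb away. Chromosome 7 held 23 members, chromosome 17 held 21 and chromosome 8 held 14. The largest neighbourhood had 12 members on chromosome 17, and its genes did not move as a block. In Puromycin versus Control Zfp52, Zfp948, Zfp942 and Zfp943 rose by 0.90 to 1.22, Zfp994, Zfp946, Zfp40 and Zfp213 fell by 0.31 to 0.96, and 4 did not pass. Zfp213 did not pass within the first set (-0.26, adjusted p = 0.139), nor Zfp40 within the second (-0.25, adjusted p = 0.308). Along the chromosome all the genes that rose come before all those that fell, an order seen after the values were known and not tested. Zfp52 averaged 1.18 ± 0.80 in Puromycin against -0.04 ± 0.21 in Control arrays (2.32-fold, adjusted p = 0.000758), with changes of 1.88 within the first set and 0.55 within the second. Of the 17 neighbourhoods, 5 had 2 or more members past the test. In 2 of these 5 the members moved both ways, in 3 all were lower and in 0 all were higher. Another 11 had a single such member and 1 had none. The neighbours Zfp729a and Zfp729b on chromosome 13, close relatives, both fell (-0.89 and -0.73).

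**Figure D5:**
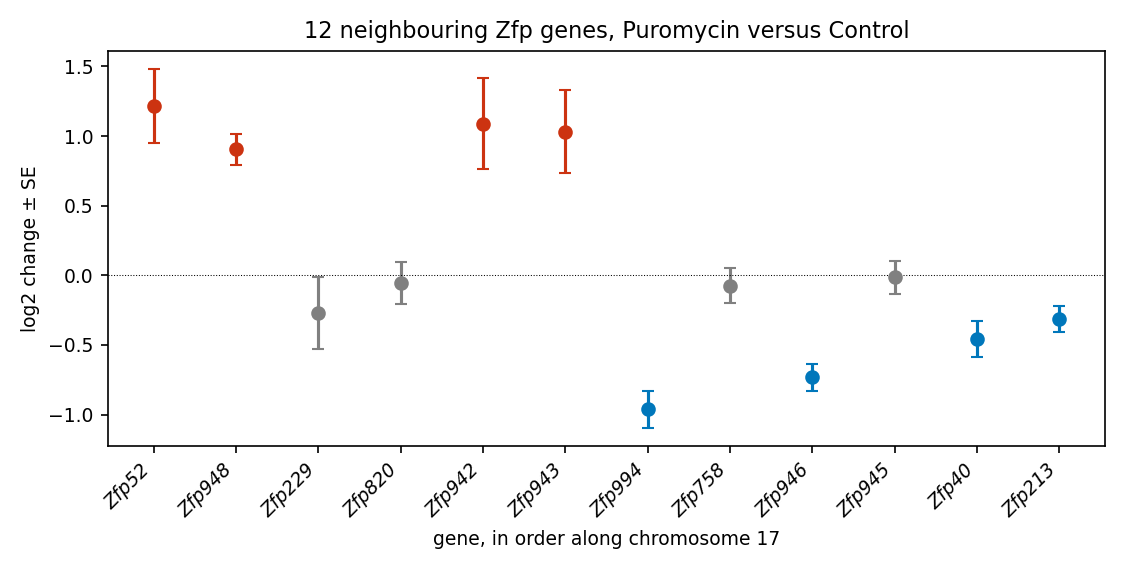
Log2 change ± SE in Puromycin versus Control (vertical axis) of 12 neighbouring Zfp genes in their order along chromosome 17 (horizontal axis), in red where the gene was higher, in blue where it was lower and in grey where it did not pass. The 4 higher genes all lie before the 4 lower ones in this order, with changes from 1.22 for Zfp52 to -0.96 for Zfp994, and the genes that did not pass lie in both stretches.

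Puromycin versus RA96 asked what changed over the 48 h of selection. Of 140 members 7 rose and 4 fell, 11 in all (7.86%), beside a background of 5.27% of all rows (3.17% higher, 2.10% lower) and 7.82% of the other genes. The groups did not overlap for 9 members, or 6.43%, where 4.60% of rows and 6.64% of the other genes had none. The median change was 0.02 (0.085 within the first set and -0.012 within the second). Blocking on the array set gave 14 rises and 10 falls, beside 12.8% of rows (7.29% higher, 5.48% lower). The falls were those of Zfp518a and Zfp57, described above, of Zfp423, and of Zfp110, or Nrif, which binds the neurotrophin receptor p75. Zfp110 had -1.13, -0.91 and -0.73 in Puromycin arrays, against -0.50, -0.15 and -0.03 in RA96 arrays. The groups did not overlap, and the change was -0.71 ± 0.12 (1.64-fold, adjusted p = 0.000555; -0.64 and -0.68 within the sets).

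Zfp930, which had fallen at 48 h, rose again with selection: it had 1.72, 1.97 and 2.06 in Puromycin arrays, against 1.10, 1.43 and 1.70 in RA96 arrays. This rise of 0.55 ± 0.12 (1.47-fold, adjusted p = 0.00609) left it 1.10 ± 0.12 below Control. Zfp758 (0.49 ± 0.13, adjusted p = 0.022), Zfp142 (0.38 ± 0.08, adjusted p = 0.00485) and Zfp330, a nucleolar protein (0.31 ± 0.07, adjusted p = 0.00937), rose without overlap, and Zfp9 rose as given above. The rise of Zfp758 was 0.67 within the first set and 0.38 (adjusted p = 0.19) within the second, and its call was lost without RA96 replicate 5 or 6 or Puromycin replicate 2 or 3. The rise of Zfp142 was 0.24 within the second set (adjusted p = 0.183) and that of Zfp330 was 0.27 within the first (adjusted p = 0.116), and neither passed there. The fall of Zfp423 did not pass without RA96 replicate 4, 5 or 6 or Puromycin replicate 1 or 3. Changes of RA48 versus Control and of Puromycin versus RA96 share no arrays. Both tests take their spread from 1 fit over all arrays, however, so they are not independent. In both, 9 members passed (19.1% of 47 and 81.8% of 11). Of these 7 had opposite directions (Zfp131, Zfp330, Zfp423, Zfp518a, Zfp57, Zfp758 and Zfp930), while Zfp110 fell and Zfp9 rose both times. The fall of Zfp330 at 48 h (-0.22) was lost without Control replicate 1, 2 or 5 or RA48 replicate 1, 2 or 3, and it was -0.068 within the second set (adjusted p = 0.561). That of Zfp758 at 48 h (-0.41) did not pass within either set alone (-0.26 with an adjusted p = 0.0865, and -0.53 with an adjusted p = 0.0597), nor without Control replicate 4 or 5 or RA48 replicate 1 or 4. Neither change of Zfp131 passed within both sets: at 48 h it was -0.15 within the second (adjusted p = 0.391), and with selection 0.22 within the first (adjusted p = 0.121). Over all rows 545 passed in both (11.7% of 4642 and 57.9% of 942), and 305 of them (56%) had opposite directions.

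Puromycin versus Control spanned the whole protocol, and it shares its Control arrays with RA48 versus Control. Of 140 members 22 rose and 36 fell, 58 in all (41.4%), beside a background of 46.3% of all rows (19.8% higher, 26.4% lower) and 53.4% of the other genes. The median change was -0.11 (-0.10 and -0.12 within the sets), against -0.06 for the other genes. The groups did not overlap for 41 members (29.3%), beside 28.3% of rows and 35.3% of the other genes. At least 2-fold changes were rises in 7 members and falls in 6 (9.29% in all), beside 10.5% of rows and 12.5% of the other genes. Blocking on the set gave 25 rises and 55 falls, 80 in all, beside 60.3% of rows.

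The 4 members in the range of the lowest 2.5% of the other genes were Zfp991, Zfp981, Zfp961 and Zfp936, of which the first 3 were among the 4 highest in undifferentiated cells. Here too the Control arrays enter both the level and the change. Zfp991 had 2.30, 2.33 and 2.40 in Puromycin arrays, against 3.96, 4.25 and 4.38 in Control arrays, and its change of -1.87 ± 0.12 (3.66-fold, adjusted p = 1.7e-11) was the largest fall of any member. Zfp981 had 1.42, 1.70 and 2.04 in Puromycin arrays, against 2.99, 3.17 and 3.97 in Control arrays (-1.59 ± 0.26, 3.02-fold, adjusted p = 3.17e-05). Zfp961 had 1.17, 1.36 and 1.55 in Puromycin arrays, against 2.56, 2.69 and 2.92 in Control arrays (-1.34 ± 0.10, 2.54-fold, adjusted p = 4.59e-10). None of these groups overlapped, and Zfp991 was still the member with the highest mean in Puromycin. Zfp936 had -0.20, 0.03 and 0.16 in Puromycin arrays, against 1.05, 1.23 and 1.70 in Control arrays (-1.29 ± 0.10, 2.45-fold). Zfp110 (-1.14 ± 0.12, 2.2-fold) and Zfp930 completed the falls of at least 2-fold. Zfp692, or AREBP, a regulator of gluconeogenic genes, had -2.24, -1.75 and -1.61 in Puromycin arrays, against -1.57, -0.99 and -0.37 in Control arrays (-0.86 ± 0.23, adjusted p = 0.00416).

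Beside Zfp503, Zfp9, Zfp52, Zfp36, Zfp942 and Zfp943, the seventh member to rise at least 2-fold was Zfp800. It averaged 0.62 ± 0.20 in Puromycin against -0.54 ± 0.11 in Control arrays (1.16 ± 0.10, 2.24-fold, adjusted p = 2.26e-09; 1.31 and 1.01 within the sets). All 3 of its probes rose, by 0.54, 1.35 and 1.59, although at 48 h 1 of them differed by -0.06 where the others rose by 0.67 and 0.96. Zfp148 rose by 0.74 ± 0.07 (adjusted p = 8.82e-09), and its 3 probes by 1.13, 0.36 and 0.73. The lowest mean of any member in Control and in Puromycin was that of Zfp335, a component of histone H3K4 methyltransferase complexes, at -2.34 ± 0.58 in Puromycin and -2.87 ± 0.48 in Control arrays. Its change of 0.53 ± 0.24 did not pass (adjusted p = 0.0735), and it was -0.38 within the first set and 1.45 within the second.

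Among the partners through which KRAB zinc finger proteins act, 12 of 21 measured genes fell by the end of the protocol. The list of 25 genes includes Zfp57. In Puromycin versus Control 1 of the 21 rose and 12 fell, where 24.8% of the other genes rose and 28.6% fell (19.8% and 26.4% of all rows), with a median of -0.47 (-0.48 and -0.24 within the sets). Trim28, the KRAB corepressor itself, fell by 0.95 ± 0.15 (adjusted p = 2.29e-05), Hdac1, a histone deacetylase, by 1.18 ± 0.18, and Atf7ip, the cofactor of Setdb1, by 0.83 ± 0.13. Dnmt3a, a de novo DNA methyltransferase, fell by 1.37 ± 0.11 and had already fallen by 1.15 ± 0.11 in RA48 versus Control. The heterochromatin proteins Cbx1 (-0.67 ± 0.11) and Cbx3 (-0.69 ± 0.26) fell as well, although Cbx3 did so only through the first set (-1.38, and 0.00 in the second). Setdb1 differed by 0.23 ± 0.33 (adjusted p = 0.588), and Mta2, a NuRD subunit, rose by 0.56 ± 0.19. At 48 h 2 of the 21 had risen and 3 had fallen, where 18.1% of the other genes rose and 16.2% fell. Over the second 48 h 1 rose and 1 fell, beside 10.8% and 11.7% of the other genes. With selection 0 rose and 2 fell, Ehmt2 and the Zfp member Zfp57, beside 4.69% and 3.13% of the other genes.

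Zinc finger genes under other names were counted in the same way. Of 72 such C2H2 genes, chosen by symbol (Klf, Zbtb, Gli, Sall and the like), 19 rose and 10 fell at 48 h, with a median of 0.06, where 18.1% of the other genes rose and 16.2% fell (11.9% and 14.1% of all rows). In Puromycin versus Control 27 rose and 14 fell, with a median of 0.18 (0.10 and 0.11 within the sets), where 24.8% of the other genes rose and 28.6% fell (19.8% and 26.4% of all rows). The Zfp medians in these comparisons were -0.13 and -0.11. Of the 72, 12 rose and 11 fell in RA96 versus RA48, with a median of -0.07, where 10.8% of the other genes rose and 11.7% fell. In Puromycin versus RA96, 5 rose and 2 fell, with a median of 0.02, where 4.69% of the other genes rose and 3.13% fell. These lists are described by counts and medians only, and the difference between them was not tested.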

How the data were processed

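RNA of A404 cells was measured on 23 2-colour Agilent arrays, quantified with Agilent Feature Extraction A.6.1.1 per the labels. The table that the authors deposited holds log10 ratios, as read here, 1 value for each probe and array. The base, centring and direction are not given in the sources used here. Division by log10 of 2 (0.301) turned them into log2 ratios. Fold changes depend on the base read here, unlike p-values. The direction, cells over embryo, was read from the dyes; Alb, expressed by fetal liver, was at -4.27 in Control. Column medians lay between -0.077 and 0.020. No intensities were used, which leaves the limit of detection unknown, and the number of arrays limits the precision.

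Of 21446 rows, 1166 (5.44%) resembled control spots (no gene, at most 6 significant digits) and were left out. The platform annotation gave 1 symbol for 11100 probes, several for 442 and none for 8738. Probes of a symbol were averaged, 17 probes with a Zfp symbol beside another were left out, and all 140 member symbols matched RefSeq. The 17863 rows were fitted with limma 3.58.1 (R 4.3.3) as 4 group means over all 23 arrays, with p-values adjusted over all rows by Benjamini-Hochberg within each comparison and a threshold of 0.05. No adjustment over a list alone was made. Whether replicates come from separate cultures is not stated, so the spread behind the p-values is that between arrays and may be technical. No arrays were duplicates (0 pairs correlated over 0.9999). Replicate numbers were not taken to pair the arrays: of 33 same-numbered pairs 30 correlated over 0.1, and the other 3 all held RA96 replicate 2, which lies in the other array set. Numbers and array sets largely coincide, so pairing and set cannot be told apart. The array sets were found from the residuals that also give the p-values, so p-values with the set as a block are optimistic.

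Members, lists and tests were chosen with earlier results of these data known. Named are 8 of 13 members listed by function, up to 6 non-overlapping rises and falls per comparison, the 3 highest and lowest levels in Control and Puromycin, and the 6 widest ranges of group means. A few more were named after their values were seen (Zfp40, Zfp131, Zfp207, Zfp213, Zfp322a, Zfp622, Zfp729a, Zfp729b, Zfp882, Zfp948 and Zfp994). The KRAB partners given singly were not picked by a fixed rule. Promoters came from RefSeq (GRCm38.p6). The fit was tested on simulated data with independent noise and no array sets. That run could not check how the sets affect the calls. Alternatives were array set and replicate blocks, each set alone, centring, quantile normalization, array weights, trended variance, only the groups compared, control-like rows kept, single probes, a threshold of 0.01 and leaving out each array. For its calls the single-probe setting kept the probe with the lowest p-value of each gene, which favours keeping a call.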

Additional observations from a re-analysis of the deposited data

Results flagged for a closer look

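In 6 of 152 sets of 5 or 6 arrays checked for the named genes, 1 array stood apart from the others of its group, and chance alone sets apart about 1 in 20. Zfp57 was at 0.80 on RA48 replicate 5, with the other RA48 arrays at 0.43 to 0.53, and its rise at 48 h lost its call without that array. Zfp688 was at 0.41 on RA96 replicate 4, with the others at 1.13 to 1.30, and its fall in RA96 versus RA48 (-0.43, adjusted p = 0.0383) was lost without it, as it was without RA48 replicate 1, 2, 3 or 5 or RA96 replicate 5. Zfp365 was at 1.12 on Puromycin replicate 4, with the others at 1.87 to 2.26. Zfp142 was at 0.35 on RA48 replicate 5 (others 0.20 to 0.24), Zfp790 at 0.046 on RA96 replicate 6 (others 0.13 to 0.18) and Zfp800 at -0.33 on Control replicate 3 (others -0.63 to -0.54).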

How the results depend on the processing

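Of 75 results of the named genes past the threshold, each under 35 other settings, 2479 of 2625 kept call and direction, 146 lost the call and 0 reversed. The total includes fits that left out 1 array, even where it was in neither group compared. Of the 75, 27 lost the call within the second set alone, 20 at a threshold of 0.01 and 11 with only the groups compared. Within the first set 5 were lost, and 5 with quantile normalization. Set and replicate blocks, trended variance, control-like rows kept and single probes lost none. The count for RA48 versus Control (47) was 72 with array weights and 29 at a threshold of 0.01, and its median change (-0.13) was -0.033 with array weights. RA96 versus RA48 (22) gave 35 members when blocked on the array set, 47 within the first set, 9 within the second, 82 with array weights, 13 with only the groups compared and 10 at the threshold of 0.01. For Puromycin versus RA96 (11) the counts were 24 when blocked on the set, 17 within the first set, 25 with array weights and 7 at 0.01. The F test count (72) was 111 with array weights. The weights' iteration stopped short of its tolerance, and the cause of these shifts was not tested. With the replicate number as a block the counts were 51, 28, 18 and 70 and the F test count 91, of which that of Puromycin versus RA96 moved by over 1.5 times. Under this block no named gene lost a call, while Zfp57 in RA96 versus RA48 (0.26, adjusted p = 0.0338) and Zfp36 in Puromycin versus RA96 (0.86, adjusted p = 0.00325) passed in addition. Of 33 same-numbered pairs 30 correlated over 0.1, and 4 of 23 arrays correlated best with their own number.

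Leaving out 1 array gave 40 to 47 members for RA48 versus Control, 11 to 23 for RA96 versus RA48, 8 to 12 for Puromycin versus RA96, 54 to 60 for Puromycin versus Control and 66 to 75 for the F test. The medians ranged from -0.15 to -0.08, -0.11 to -0.06, 0.02 to 0.04 and -0.14 to -0.10.

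Reversals of sign touched Zfp42, Zfp462, Zfp36, Zfp217 and Zfp281 in comparisons in which they had not passed. In RA48 versus Control, Zfp462 (-0.11) was 0.020 with the set block, 0.023 within the first set and 0.085 with the replicate block, Zfp36 (0.29) was -0.22 and Zfp42 (0.14) was -0.25 within the first set, and Zfp217 (-0.11) was 0.075 within the second. In RA96 versus RA48, Zfp281 (-0.14) was 0.013 within the first set, Zfp462 (-0.036) was 0.015 with quantile normalization and 0.69 with array weights, and Zfp217 (-0.075) was 0.065 and Zfp36 (0.087) was -0.39 with array weights. In Puromycin versus RA96, Zfp462 (-0.39) was 0.19 within the first set and Zfp42 (-0.06) was 0.11 within the second, and in Puromycin versus Control Zfp42 (-0.085) was 0.33 within the second. Leaving out 1 array, Zfp42 ranged from -0.074 to 0.25 in RA48 versus Control, from -0.26 to 0.050 in RA96 versus RA48 and from -0.29 to 0.031 in Puromycin versus Control. Zfp462 ranged from -0.40 to 0.028 and from -0.39 to 0.26 in the comparisons of RA48 with Control and of RA96 with RA48, and in the last Zfp217 ranged from -0.12 to 0.011 and Zfp36 from -0.092 to 0.24.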

Other observations

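Zfp41 is the member whose values followed the array set most closely among those shown. It lay at -3.91 to -2.95 on the 11 arrays of the first set and at -0.40 to 0.22 on the 12 arrays of the second, whatever the group, and its F test adjusted p was 0.924 (0.459 with the set as a block). Zfp882 lay in the range of the highest 2.5% of the other genes in Puromycin versus RA96 with a change of 0.79, yet it did not pass the test, and Zfp622, a factor of ribosome biogenesis, passed with 0.64.

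Among the C2H2 genes under other names, Klf4, a factor of stem cells and of smooth muscle phenotype, rose by 2.87 ± 0.20 and Prdm6, a smooth muscle repressor, by 2.77 ± 0.20 in Puromycin versus Control. Sall1 fell there by 2.14 ± 0.17, Sall4, a stem cell factor, by 1.96 ± 0.12 and Zscan10, a partner of Sox2 and Oct4, by 1.68 ± 0.22 (limma, adjusted p = 1.73e-06 for the last). The largest of these changes exceeded that of any Zfp gene in the same comparison, where the range was -1.87 to 1.86. These 5 genes were named after their values were seen.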
